A study of Homo sapiens with 18 samples.

Results

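The genes described here are 10 genes at the end of the Hippo pathway, taken by symbol from the 28277 genes of the deposited table. They are the effectors YAP1 and WWTR1 (the gene of TAZ), the DNA-binding partners TEAD1, TEAD2, TEAD3 and TEAD4, and the target genes CCN1, CCN2, ANKRD1 and AMOTL2. Their RNA was measured by RNA-seq of OVCAR3-KRAB cells, an ovarian cancer cell line that carries dCas9-KRAB, a Cas9 without nuclease activity joined to a repressor domain. All groups carried this repressor and differed in the sgRNA, a control (sgControl) or a guide to the XIST promoter (sgXIST7 or sgXIST9). The study established monoclonal lines for each guide and chose among the XIST lines by their loss of XIST, and how many clones were sequenced is not given in the sources used here. Cells of each guide were either left in normoxia or put at 1% oxygen for 24 h (hypoxia), in 3 libraries per group, so that 6 groups and 18 libraries were compared. The study calls the 3 libraries of a group biological replicates, and the effect of a guide cannot be told apart from differences between the clones that carry it.

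The Hippo pathway restrains growth and is read out through YAP and TAZ, a pair of transcriptional coactivators. When the MST kinases (STK3 and STK4) and the LATS kinases are active, YAP and TAZ are phosphorylated and held in the cytoplasm. When the kinases are quiet, the coactivators enter the nucleus and bind TEAD factors, which recognise the letters CATTCC in DNA. The CCN1, CCN2, ANKRD1 and AMOTL2 genes are among the most widely used readouts of this step. CCN1 and CCN2 encode secreted matricellular proteins, ANKRD1 encodes a nuclear ankyrin repeat protein, and AMOTL2 encodes an angiomotin that in turn holds YAP at cell junctions. RNA levels do not report the phosphorylation or the location of YAP and TAZ.

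The sequence just before the start of each gene is shown because the targets are defined by TEAD binding. RefSeq start sites on GRCh38.p14 were available in 10 entries for 7 of the genes, with no entry used for TEAD1, TEAD4 or CCN1. The 250 bases before each start were searched on both strands for CATTCC, which reads GGAATG on the other strand. At least 1 match was found in 4 of the 10 entries, and these are printed 5′ to 3′ on the strand of the gene, with the matches in capitals. The CCN2, ANKRD1 and AMOTL2 genes lie on the minus strand and YAP1 on the plus strand.
CCN2 (chr6:131951373-131951622): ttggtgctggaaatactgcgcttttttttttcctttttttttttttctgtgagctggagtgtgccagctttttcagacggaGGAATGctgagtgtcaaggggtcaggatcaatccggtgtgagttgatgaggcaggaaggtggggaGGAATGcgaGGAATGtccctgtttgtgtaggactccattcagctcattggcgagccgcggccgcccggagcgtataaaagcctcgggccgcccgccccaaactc
ANKRD1 (chr10:90921088-90921337): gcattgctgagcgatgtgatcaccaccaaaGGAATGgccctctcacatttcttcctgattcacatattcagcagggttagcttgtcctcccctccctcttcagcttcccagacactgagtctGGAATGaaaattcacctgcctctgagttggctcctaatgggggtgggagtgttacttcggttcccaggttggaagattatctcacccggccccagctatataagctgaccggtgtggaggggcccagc
AMOTL2 (chr3:134374448-134374697): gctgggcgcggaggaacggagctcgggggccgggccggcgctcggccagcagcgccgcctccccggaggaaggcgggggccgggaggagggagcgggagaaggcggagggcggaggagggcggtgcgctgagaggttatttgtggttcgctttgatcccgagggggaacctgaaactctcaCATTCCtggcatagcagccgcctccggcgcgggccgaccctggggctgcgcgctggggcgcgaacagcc
YAP1 (chr11:102110197-102110446): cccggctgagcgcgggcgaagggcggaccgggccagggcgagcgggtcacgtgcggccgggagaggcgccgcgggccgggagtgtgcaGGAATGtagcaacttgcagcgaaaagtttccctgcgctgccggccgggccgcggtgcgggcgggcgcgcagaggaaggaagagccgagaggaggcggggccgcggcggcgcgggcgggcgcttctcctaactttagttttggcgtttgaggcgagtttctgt
The CCN2 window held 3 matches, at 169, 104 and 95 bases before the start. The ANKRD1 window held 2 matches, at 220 and 128 bases. The second-listed start of AMOTL2 had 1 match at 69 bases, and YAP1 had 1 match at 162 bases. Among the 35116 windows of the same length over all RefSeq entries, 11.9% held at least 1 match, 0.94% held 2 or more, and 0.0826% held 3 or more. No match was present in the windows of WWTR1 (2 entries), TEAD2 (2 entries), TEAD3 or the other start of AMOTL2. The AP-1 letters, TGACTCA or on the other strand TGAGTCA, were in 0 of the 10 windows and in 4.2% of all windows. The core of the hypoxia response element, ACGTG or on the other strand CACGT, was in the YAP1 window only, as an overlapping pair of matches at 203 and 202 bases, and in 18.5% of all windows. A match describes the letters of a window and does not show that a factor binds there.

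Total counts ranged from 11794375 to 24906936 per library, and expression levels are in CPM, computed on TMM-adjusted library sizes. XIST, the targeted RNA, had 4213 to 11209 counts in sgControl normoxia, 1 to 5 in sgXIST7 and 650 to 1009 in sgXIST9. In hypoxia it had 1589 to 5014, 0 to 3 and 357 to 510 counts, so the reduction by sgXIST7 was near complete and that by sgXIST9 was partial. Of 10 genes known to respond to hypoxia, 8 rose in sgControl and 9 rose in each XIST guide. The epithelial markers EPCAM (group means of 160 to 243 CPM) and KRT18 (140 to 219 CPM) were present, but MUC16, KRT7, CDH1, WFDC2, MSLN and WT1, also on the list of 10 ovarian carcinoma markers, were at or near 0 in every group. PAX8 had group means of 1.51 to 4.55 CPM. KRT8, a keratin on the same list, moved with the guide, from 9.13 ± 0.43 CPM in sgControl to 34.7 ± 7.56 in sgXIST7 and 33.8 ± 2.16 in sgXIST9 in normoxia, and from 4.41 ± 0.485 to 25.8 ± 2.65 and 19.4 ± 6.18 in hypoxia (SD, n = 3). Against sgControl in hypoxia EPCAM also rose in sgXIST7 (0.54) and sgXIST9 (0.56), and KRT18 in sgXIST7 (0.46). The summed level of 6 fibroblast markers was 1.24 to 3.72 CPM in the sgControl libraries and 33.6 to 309 CPM in the sgXIST libraries. This was almost wholly COL1A2, and the markers DCN, LUM, PDGFRA and PDGFRB had group means at or under 1.56 CPM. COL1A1 had group means of 0.564, 2.79 and 2.25 CPM in normoxia in sgControl, sgXIST7 and sgXIST9, and 0.163, 2.06 and 5.21 CPM in hypoxia. DCN went the other way in hypoxia, at 1.56 CPM in sgControl, 0.0447 CPM in sgXIST7 and 0.0993 CPM in sgXIST9. The 4 endothelial markers summed to at most 0.684 CPM. The 4 immune markers summed to 11.1 to 56 CPM in all groups, with PTPRC and CD3E at or near 0. The part of these markers in the results below was not tested. In such bulk samples, fewer cells of a type and less RNA per cell cannot be told apart. In sgControl and sgXIST9 hypoxia the library numbered 3 was the least like the others of its group, with a chi-square per degree of freedom of 37 to 79.2 against it and of 22.4 and 21 between the other 2. In sgXIST7 hypoxia this was the library numbered 1 (30.3 and 42.8, against 20.8). On the third principal component, which held 10% of the variance, that of sgControl was at 13.7 and the others at -22.3 and -25.3, and the library numbered 3 was the highest of its hypoxia group in each guide. Results that rest on the hypoxia libraries numbered 3 are therefore given with and without them, and the labels name no batch.

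Groups were compared by edgeR's quasi-likelihood test with Benjamini-Hochberg adjustment over the 14938 genes that passed a filter on low counts. A gene passed the test with an adjusted p under 0.01, and was called where its log2 fold change was also above 1 in size. ANKRD1 failed the filter, so 9 of the 10 genes were tested. An exact permutation test of 3 against 3 libraries cannot go below p = 0.1. In normoxia, 2 of the 9 genes rose in sgXIST7 against sgControl (TEAD1 and CCN2) and 0 fell, where 7.39% of all genes tested rose and 6.1% fell, and 1 was called, where 7.76% of all genes were. In sgXIST9, 0 rose and 2 fell (CCN1 and AMOTL2), against 6.51% and 6.6% of all genes, and 1 was called, against 7.7%. The numbers called lie close to the share over all genes. With 9 genes these counts are small, and the normoxia comparisons are carried by single genes.

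In hypoxia, more of the 9 genes passed the test. In sgXIST7 against sgControl, 3 rose (WWTR1, TEAD1 and TEAD2) and 2 fell (CCN1 and AMOTL2), where 13.9% of all genes rose and 13.7% fell, and 4 were called, where 14.0% of all genes were. In sgXIST9, 2 rose (WWTR1 and TEAD2) and 2 fell (CCN1 and AMOTL2), against 9.65% and 8.24%, and 1 was called, against 9.53%. In both oxygen levels the 2 guides were compared with the same sgControl libraries, so the guides are not independent. Between the XIST guides, 0 of the 9 genes passed in normoxia, where 2.93% of all genes were higher in sgXIST7, 2.04% lower and 3.4% called. An unadjusted p under 0.05 was reached there by 3 genes (CCN1, CCN2 and AMOTL2), and the Wald test of DESeq2 also passed 0. In hypoxia, 1 gene (CCN1) was higher in sgXIST7 than in sgXIST9 and was called, where 4.21% of all genes were higher, 4.22% lower and 4.46% called.

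Hypoxia itself changed a similar number of the genes. In sgControl cells, 2 rose (CCN2 and AMOTL2) and 2 fell (TEAD1 and TEAD2), where 18.8% of all genes rose and 18.8% fell, and 1 was called, against 19.7%. In sgXIST7 cells, 1 rose (CCN2) and 2 fell (TEAD1 and TEAD4), against 23.5% and 23.2%, and 2 were called, against 27.3%. In sgXIST9 cells, 2 rose (CCN2 and AMOTL2) and 2 fell (TEAD1 and TEAD4), against 23.1% and 19.0%, and 1 was called, against 23.3%. The rise of CCN2 and the fall of TEAD1 were thus past the test in all 3 guides. The median log2 fold change over the 9 genes was between -0.20 and 0.35 in the comparisons of groups, and that over all genes between -0.03 and 0.09.

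**Figure D1:**
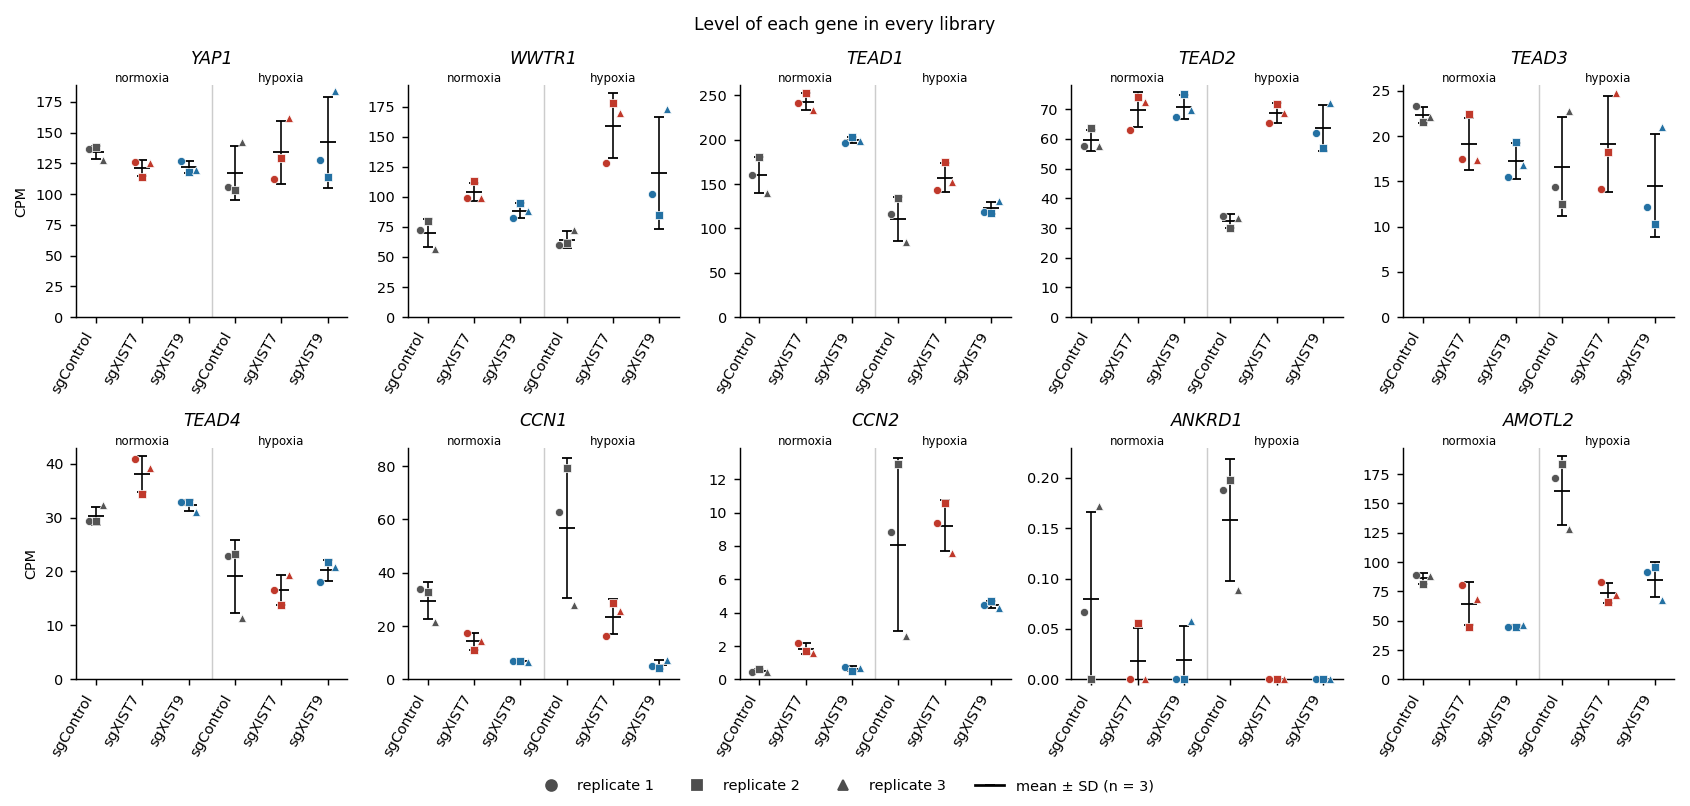
Level of each of the 10 genes in the 18 libraries, in CPM on a linear axis that starts at 0, with a point per library shaped by its replicate number and a bar for the mean ± SD (n = 3). TEAD2 of sgControl in hypoxia lies at 29.9 to 34.0 CPM, below all other groups, and CCN2 is at most 2.21 CPM in normoxia and at least 2.57 CPM in hypoxia.

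Per kilobase of exon, the mean levels over the 18 libraries were highest for TEAD2 (26.3 CPM per kb) and YAP1 (22.5), followed by WWTR1 (17.8), TEAD1 (17.6), AMOTL2 (16.6) and TEAD4 (15.1). CCN1 was at 9.96 CPM per kb and TEAD3 at 6.07. CCN2 (1.77) and ANKRD1 (0.0233) were lowest. The targets thus spanned a wide range, with AMOTL2 above TEAD4 and CCN1 above TEAD3. WWTR1-AS1, on the opposite strand of WWTR1, shared 0 exon bases with it and had 623 counts in all against 33256. CD37 shared 9 exon bases with TEAD2, which is 0.39% of its exons, and had 4 counts against 20276.

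YAP1 (chr11:102110447-102233424, plus strand, hg38), the coactivator for which the targets are named, did not pass the test in any comparison. Its levels in normoxia were 137, 138 and 128 CPM in sgControl, 126, 114 and 125 CPM in sgXIST7, and 127, 118 and 120 CPM in sgXIST9. In hypoxia they were 106, 103 and 142 CPM in sgControl, 112, 129 and 162 CPM in sgXIST7, and 128, 114 and 184 CPM in sgXIST9. Every neighbour in the order of the 6 group means overlapped the next. The highest value of each hypoxia group was its library numbered 3, at 1.34 to 1.51 times the mean of the other 2. The log2 difference between sgXIST7 and sgControl was -0.15 in normoxia, with an interval of 2 SE from -0.48 to 0.18, and 0.20 (-0.13 to 0.54) in hypoxia. With the hypoxia libraries numbered 3 left out, YAP1 fell in hypoxia in sgControl, with a log2 fold change of -0.36 (edgeR, adjusted p = 0.0032) in place of -0.20 (adjusted p = 0.32).

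WWTR1 (chr3:149517229-149724788, minus strand), which encodes the YAP paralog TAZ, was higher in cells with an XIST guide in hypoxia. In sgControl it was at 72.3, 79.7 and 56.8 CPM in normoxia and 59.6, 61.4 and 72.1 CPM in hypoxia. In sgXIST7 it was at 99.0, 113 and 99.1 CPM in normoxia and 128, 178 and 170 CPM in hypoxia. The sgXIST9 libraries had 82.3, 94.8 and 88.5 CPM in normoxia and 102, 84.9 and 173 CPM in hypoxia. All libraries of either XIST guide lay above all sgControl libraries at the same oxygen level. In hypoxia WWTR1 rose 2.47-fold in sgXIST7 (log2 fold change 1.30 ± 0.21 SE, edgeR, adjusted p = 0.00012) and 1.86-fold in sgXIST9 (0.90 ± 0.21, adjusted p = 0.0033).

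The sgXIST9 result rested in part on the library numbered 3, which was 1.85 times the other 2. Without that library the value was 0.53 and no longer passed, without sgControl hypoxia replicate 1 or 2 it was 0.83 and 0.86 and did not pass, and with all 3 hypoxia libraries numbered 3 left out it was 0.62 (edgeR, adjusted p = 0.0058). In normoxia the value in sgXIST7 was 0.57 ± 0.21 (adjusted p = 0.055) and that in sgXIST9 0.35 ± 0.21 (adjusted p = 0.26). The replicate numbers paired the sgControl and sgXIST7 normoxia libraries, and with the replicate number as a block within each oxygen level the sgXIST7 value passed (0.58, edgeR, adjusted p = 0.0099), while with a single block over all libraries it did not (adjusted p = 0.046). It also passed without sgXIST9 hypoxia replicate 3 (adjusted p = 0.0076). Hypoxia gave a value of 0.62 in sgXIST7 (adjusted p = 0.016) and 0.44 in sgXIST9 (adjusted p = 0.080). The sgXIST7 value was 0.58 (adjusted p = 0.0022) with the hypoxia libraries numbered 3 left out, and it also passed without sgXIST7 hypoxia replicate 1 or sgXIST9 hypoxia replicate 2 or 3.

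TEAD1 (chr11:12674421-12944737, plus strand) is one of the 4 DNA-binding TEAD factors. In normoxia it was at 160, 181 and 140 CPM in sgControl, 241, 253 and 234 CPM in sgXIST7, and 196, 203 and 199 CPM in sgXIST9. In hypoxia it was at 116, 134 and 84.7 CPM in sgControl, 143, 175 and 152 CPM in sgXIST7, and 119, 118 and 131 CPM in sgXIST9. Its level was thus lower in hypoxia than in normoxia in every guide, without overlap. The log2 fold change in hypoxia was -0.52 ± 0.14 SE in sgControl (edgeR, adjusted p = 0.0043), -0.63 ± 0.14 in sgXIST7 (adjusted p = 0.0008) and -0.70 ± 0.14 in sgXIST9 (adjusted p = 0.00036). The sgControl value was -0.36 without sgControl hypoxia replicate 3 (adjusted p = 0.017) and did not pass. It also did not pass without sgControl hypoxia replicate 1 or sgControl normoxia replicate 1 or 2 (values between -0.54 and -0.44).

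TEAD1 was also higher in sgXIST7 than in sgControl. The log2 fold change was 0.60 ± 0.14 in normoxia (edgeR, adjusted p = 0.0040) and 0.49 ± 0.14 in hypoxia (adjusted p = 0.0087). In sgXIST9 it was 0.31 (adjusted p = 0.12) and 0.14 (adjusted p = 0.49), and the sgXIST7 and sgXIST9 libraries did not overlap although the difference did not pass (0.28, adjusted p = 0.25, and 0.35, adjusted p = 0.081). The normoxia value of sgXIST7 stayed between 0.51 and 0.69 when any library was left out, but did not pass without sgXIST7 normoxia replicate 1, 2 or 3 or sgControl normoxia replicate 1 or 3 (adjusted p up to 0.031). The hypoxia value was 0.33 without sgControl hypoxia replicate 3 (adjusted p = 0.028) and 0.35 without the 3 hypoxia libraries numbered 3 (adjusted p = 0.024). It was also lost without sgControl hypoxia replicate 1, sgXIST7 hypoxia replicate 2 or 3, sgXIST9 hypoxia replicate 1 or 2, sgControl normoxia replicate 1, sgXIST7 normoxia replicate 1 or 3, or any sgXIST9 normoxia library, with values of 0.40 to 0.51.

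TEAD2 (chr19:49340596-49362416, minus strand) differed between the guides in hypoxia. In sgControl it was at 57.5, 63.5 and 57.5 CPM in normoxia and 34.0, 29.9 and 33.4 CPM in hypoxia. The sgXIST7 levels were 63.0, 74.0 and 72.4 CPM in normoxia and 65.2, 71.9 and 68.7 CPM in hypoxia. The sgXIST9 levels were 67.4, 75.1 and 69.6 CPM in normoxia and 62.1, 57.0 and 72.0 CPM in hypoxia. The sgControl hypoxia group stood below the other 5 groups without overlap, while the ranges of neighbouring groups among those 5 overlapped.

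Hypoxia lowered TEAD2 1.84-fold in sgControl (log2 fold change -0.88 ± 0.11 SE, edgeR, adjusted p = 4.3e-06), while the change was -0.03 (-0.23 to 0.18) in sgXIST7 and -0.15 (-0.36 to 0.06) in sgXIST9, neither past the test. In hypoxia TEAD2 was higher than in sgControl by 1.08 ± 0.11 in sgXIST7 (adjusted p = 8e-07) and by 0.97 ± 0.11 in sgXIST9 (adjusted p = 3e-06). The responses themselves were compared by the interaction of guide and oxygen. Of the 9 genes, 1 (TEAD2) differed in the sgXIST7 response, where 1.18% of all genes were higher and 0.984% lower, and 0 were called, against 1.52%. Its difference was 0.85 ± 0.15 on the log2 scale (edgeR, adjusted p = 0.0035), and 0.88 (adjusted p = 0.00036) with the hypoxia libraries numbered 3 left out. It did not pass without sgControl normoxia replicate 2, sgXIST7 normoxia replicate 1, or replicate 2 of sgControl or sgXIST7 hypoxia, at 0.78 to 0.82 (adjusted p up to 0.013). In the sgXIST9 response 0 of the 9 genes passed, where 0.756% of all genes were higher, 0.502% lower and 1.01% called. There an unadjusted p under 0.05 was reached by 2 genes (TEAD2 and CCN1), and the Wald test of DESeq2 passed 1. TEAD2 was at 0.73 ± 0.15 in that contrast (adjusted p = 0.011). It passed with the replicate number as a block, over all libraries (0.72, adjusted p = 0.0091) or within each oxygen level (0.72, adjusted p = 0.003), the numbers having paired the sgControl and sgXIST9 hypoxia libraries. It also passed without sgControl hypoxia replicate 3 (0.75, adjusted p = 0.0037) and without sgXIST9 hypoxia replicate 2.

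TEAD3 (chr6:35473597-35497079, minus strand) was the lowest of the TEAD genes per length and did not pass the test in any comparison. Its levels ran from 10.3 to 24.8 CPM, and every group overlapped its neighbour in the order of means. In each hypoxia group the library numbered 3 was the highest, at 22.8, 24.8 and 21.0 CPM in sgControl, sgXIST7 and sgXIST9, which is 1.53 to 1.87 times the mean of the other 2. Without these libraries TEAD3 fell in hypoxia in sgControl (-0.73, edgeR, adjusted p = 0.0007) and in sgXIST9 (-0.61, adjusted p = 0.0025), in place of -0.44 and -0.26.

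TEAD4 (chr12:2959397-3040676, plus strand) was lower in hypoxia. It was at 29.3, 29.3 and 32.3 CPM in normoxia and 22.8, 23.3 and 11.3 CPM in hypoxia in sgControl. In sgXIST7 it was at 40.8, 34.3 and 39.1 CPM in normoxia and 16.6, 13.8 and 19.4 CPM in hypoxia. In sgXIST9 it was at 32.8, 32.9 and 31.1 CPM in normoxia and 18, 21.8 and 20.9 CPM in hypoxia. No normoxia library overlapped a hypoxia library of the same guide. TEAD4 fell 2.31-fold in sgXIST7 (log2 fold change -1.21 ± 0.20 SE, edgeR, adjusted p = 6e-05) and 1.60-fold in sgXIST9 (-0.67 ± 0.20, adjusted p = 0.0076).

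In sgControl the value was -0.66 ± 0.20 and just missed the threshold (edgeR, adjusted p = 0.011). It passed without sgControl hypoxia replicate 1 or 2, and with the hypoxia libraries numbered 3 left out, when it was smaller but less spread (-0.39, adjusted p = 0.0094). The sgXIST9 value stayed between -0.73 and -0.59. It did not pass on removal of any library of the sgXIST9 groups, sgControl normoxia replicate 1 or 2, or sgXIST7 normoxia replicate 3. The difference in response between sgXIST7 and sgControl was -0.55 (adjusted p = 0.21), and -0.81 without sgControl hypoxia replicate 3 (adjusted p = 0.0043). The difference between sgXIST7 and sgControl in hypoxia itself was -0.22 (adjusted p = 0.39), and -0.48 without that library (adjusted p = 0.0071).

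**Figure D2:**
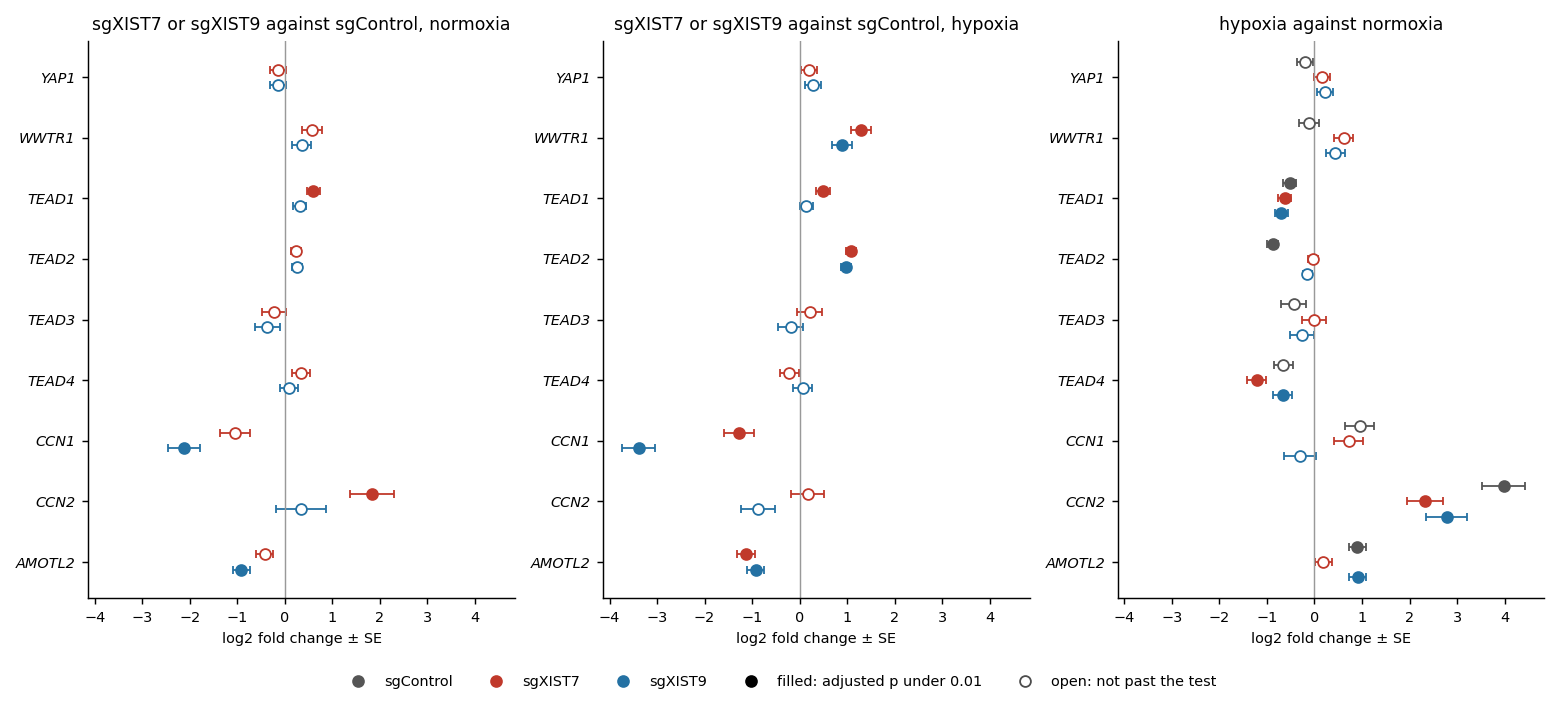
Log2 fold change with its SE for the 9 genes tested, from the edgeR fit of 18 libraries, for each XIST guide against sgControl in normoxia (left) and hypoxia (middle) and for hypoxia against normoxia in each guide (right). Filled points have an adjusted p under 0.01, and colours mark the guide. CCN1 lies furthest left in sgXIST9 at -2.12 and -3.39, and CCN2 furthest right in hypoxia at 2.33 to 3.98.

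CCN1 (chr1:85580761-85583949, plus strand), the secreted protein also known as CYR61, was lower in cells with either XIST guide, and lowest in sgXIST9. In sgControl it was at 34.0, 32.9 and 21.6 CPM in normoxia and 62.9, 79.2 and 27.8 CPM in hypoxia. In sgXIST7 it was at 17.3, 11 and 14.4 CPM in normoxia and 16.2, 28.6 and 25.6 CPM in hypoxia. The sgXIST9 levels were 6.74, 6.91 and 6.60 CPM in normoxia and 4.88, 4.18 and 7.38 CPM in hypoxia. In normoxia the 3 groups did not overlap, and in hypoxia the sgXIST7 libraries overlapped the sgControl library numbered 3.

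In sgXIST9 CCN1 fell 4.36-fold in normoxia (log2 fold change -2.12 ± 0.33 SE, edgeR, adjusted p = 0.00014) and 10.5-fold in hypoxia (-3.39 ± 0.34, adjusted p = 1.3e-06). In sgXIST7 the normoxia value was -1.05 ± 0.31 (adjusted p = 0.024), which passed without sgControl hypoxia replicate 3 (-1.05, adjusted p = 0.0029). The hypoxia value of sgXIST7 was -1.28 ± 0.31, a 2.43-fold fall (adjusted p = 0.0036), and -1.66 (adjusted p = 0.00013) with the hypoxia libraries numbered 3 left out. It did not pass without sgControl hypoxia replicate 1 or 2 or sgXIST7 hypoxia replicate 1 or 3, with values from -1.34 to -0.96 (adjusted p up to 0.029). CCN1 was 4.32-fold higher in sgXIST7 than in sgXIST9 in hypoxia (2.11 ± 0.34, adjusted p = 0.00035). XIST itself had fewer counts in sgXIST7 than in sgXIST9, and a relation of CCN1 to the level of XIST was not tested.

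Hypoxia gave CCN1 a log2 fold change of 0.95 ± 0.31 in sgControl (edgeR, adjusted p = 0.017), 0.72 ± 0.31 in sgXIST7 (adjusted p = 0.059) and -0.31 ± 0.34 in sgXIST9 (adjusted p = 0.46), none past the test. The sgControl hypoxia library numbered 3 was at 0.391 times the mean of the other 2. Without it the sgControl value was 1.28 (adjusted p = 0.00041), so whether CCN1 rose in hypoxia in sgControl depended on 1 library. The difference in response between sgXIST9 and sgControl was -1.26 (adjusted p = 0.12), and -1.59 without that library (adjusted p = 0.0067).

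AMOTL2 (chr3:134355345-134375417, minus strand), the angiomotin, was also lower in cells with an XIST guide. In sgControl it was at 89.2, 80.9 and 88.4 CPM in normoxia and 172, 184 and 128 CPM in hypoxia. The sgXIST7 levels were 80.4, 44.6 and 68.4 CPM in normoxia and 82.7, 66.2 and 72.3 CPM in hypoxia. In sgXIST9 it was at 45.0, 44.8 and 46.4 CPM in normoxia and 91.2, 95.9 and 68.0 CPM in hypoxia. All libraries of both XIST guides lay below all sgControl libraries at each oxygen level. AMOTL2 fell in sgXIST9 by 0.92 ± 0.18 SE on the log2 scale in normoxia (edgeR, adjusted p = 0.0013) and by 0.92 ± 0.18 in hypoxia (adjusted p = 0.001). In sgXIST7 it fell in hypoxia by 1.13 ± 0.18 (adjusted p = 0.00014), while the normoxia value was -0.42 ± 0.18 (adjusted p = 0.12).

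Hypoxia raised AMOTL2 1.87-fold in sgControl (log2 fold change 0.90 ± 0.18 SE, edgeR, adjusted p = 0.00058) and 1.87-fold in sgXIST9 (0.91 ± 0.18, adjusted p = 0.00052). In sgXIST7 the value was 0.19 (-0.17 to 0.56) and did not pass. The difference in response between sgXIST7 and sgControl did not pass either (-0.71 ± 0.26, adjusted p = 0.089), so a smaller response in sgXIST7 was not shown. For sgXIST9 that difference was 0.00 (-0.50 to 0.51).

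CCN2 (chr6:131948177-131951372, minus strand), also known as CTGF, was the gene of the set that responded most to hypoxia. In normoxia it was near the limit of the data, at 0.47, 0.619 and 0.459 CPM in sgControl (7, 8 and 8 counts) and 0.759, 0.478 and 0.701 CPM in sgXIST9 (17, 9 and 12 counts). In sgXIST7 normoxia it was at 2.21, 1.72 and 1.57 CPM (51, 31 and 36 counts). In hypoxia it was at 8.81, 12.9 and 2.57 CPM in sgControl, 9.36, 10.6 and 7.60 CPM in sgXIST7, and 4.47, 4.67 and 4.29 CPM in sgXIST9. Every hypoxia library lay above every normoxia library of all guides. CCN2 rose 15.8-fold in sgControl (log2 fold change 3.98 ± 0.45 SE, edgeR, adjusted p = 2.1e-06), 5.02-fold in sgXIST7 (2.33 ± 0.38, adjusted p = 5.6e-05) and 6.85-fold in sgXIST9 (2.78 ± 0.43, adjusted p = 3.7e-05). Without the hypoxia libraries numbered 3 these log2 values were 4.40, 2.46 and 2.81, all past the test.

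The differences between guides were less firm for CCN2 than its response to oxygen. In normoxia it rose 3.56-fold in sgXIST7 against sgControl (log2 fold change 1.83 ± 0.47 SE, edgeR, adjusted p = 0.0093). This call was lost in 17 of 28 alternatives, which include the removal of any library other than replicates 2 and 3 of sgControl hypoxia, while the value stayed between 1.67 and 1.97. In sgXIST9 the value was 0.34 ± 0.53 (adjusted p = 0.71). In hypoxia the value was 0.17 (-0.53 to 0.87) in sgXIST7, and -0.23 without sgControl hypoxia replicate 3. In sgXIST9 it was -0.87 ± 0.36 (adjusted p = 0.078), and without that library it was -1.28 and passed (adjusted p = 0.00027). That library held CCN2 at 0.237 times the mean of the other 2, and CCN1, TEAD4, TEAD1 and AMOTL2 in it were at 0.391, 0.489, 0.679 and 0.719 times. Without it, CCN2 also passed in the differences in response of sgXIST7 (-2.06, adjusted p = 0.00092) and of sgXIST9 (-1.62, adjusted p = 0.0095), which were -1.66 (adjusted p = 0.084) and -1.21 (adjusted p = 0.29) with it. It likewise decided the comparison of the XIST guides, where CCN2 was higher in sgXIST7 by 1.49 in normoxia (adjusted p = 0.042, and 0.00076 without it) and by 1.04 in hypoxia (adjusted p = 0.052, and 0.0016 without it).

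ANKRD1 (chr10:90912100-90921275, minus strand) was at or near 0 although its upstream window holds a pair of the TEAD letters shown above. Its counts in normoxia were 1, 0 and 3 in sgControl, 0, 1 and 0 in sgXIST7, and 0, 0 and 1 in sgXIST9. In hypoxia they were 3, 4 and 1 in sgControl and 0 in all 6 libraries of the XIST guides. A limit of 3 counts per library corresponds to 0.13 to 0.266 CPM, and this limit covers counting error only. ANKRD1 was not tested and no fold is given, since differences of this size were not detectable at this depth.

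**Figure D3:**
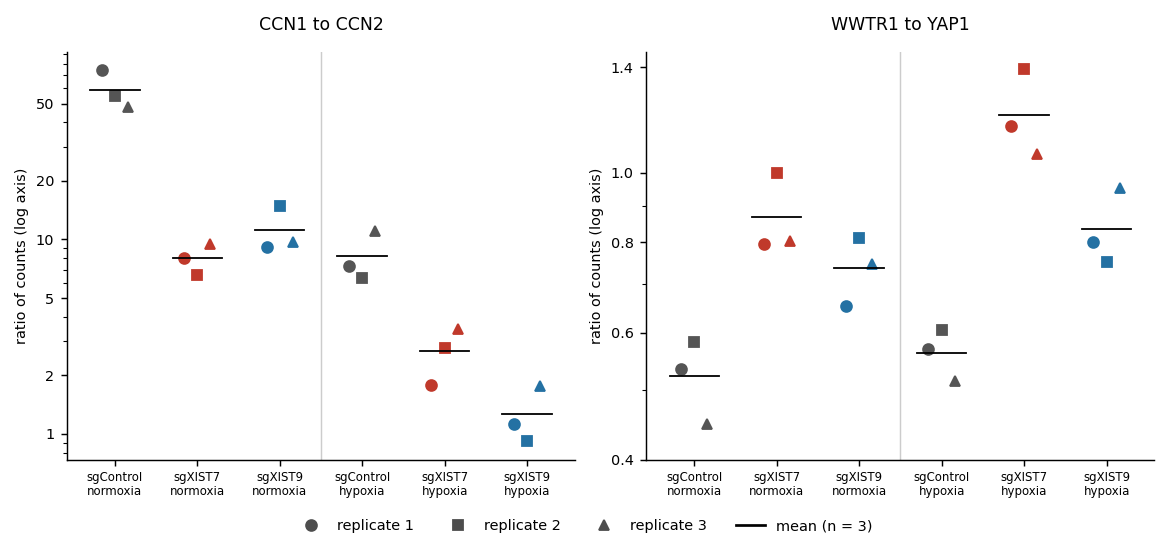
Ratio of the counts per exon length of CCN1 to CCN2 (left) and of WWTR1 to YAP1 (right) in each of the 18 libraries on log axes, with a line for the mean of the 3 libraries of a group. The CCN1 to CCN2 ratio is 48.2 to 74.3 in sgControl normoxia and at most 14.8 elsewhere, and the mean WWTR1 to YAP1 ratio is 1.2 in sgXIST7 hypoxia and at most 0.868 elsewhere.

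The 2 CCN genes, commonly read together as YAP targets, did not change alike across the groups. In hypoxia both had positive values in sgControl (CCN1 0.95, CCN2 3.98) and sgXIST7 (0.72 and 2.33). In sgXIST9 the values were -0.31 and 2.78, and CCN1 did not pass the test in any guide. The ratio of CCN1 to CCN2 counts, each divided by exon length, was 59.0 ± 13.6 (SD, n = 3) in sgControl in normoxia and 8.26 ± 2.52 in hypoxia. In sgXIST7 it was 8.01 ± 1.44 in normoxia and 2.66 ± 0.843 in hypoxia, and in sgXIST9 11.2 ± 3.15 and 1.27 ± 0.443. At each oxygen level the ratios of sgControl lay above those of both XIST guides without overlap. These ratios are read between groups only, and in normoxia they rest on as few as 7 CCN2 counts. The ratio of WWTR1 to YAP1, computed in the same way, compares the effectors within a library. It was 0.522 ± 0.068 in sgControl normoxia, 0.868 ± 0.116 in sgXIST7 and 0.737 ± 0.0794 in sgXIST9. In hypoxia it was 0.563 ± 0.0458, 1.2 ± 0.171 and 0.835 ± 0.105, so TAZ RNA was higher relative to YAP1 RNA in each XIST guide at both oxygen levels, again without overlap with sgControl. The ratios were not tested further.

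**Figure D4:**
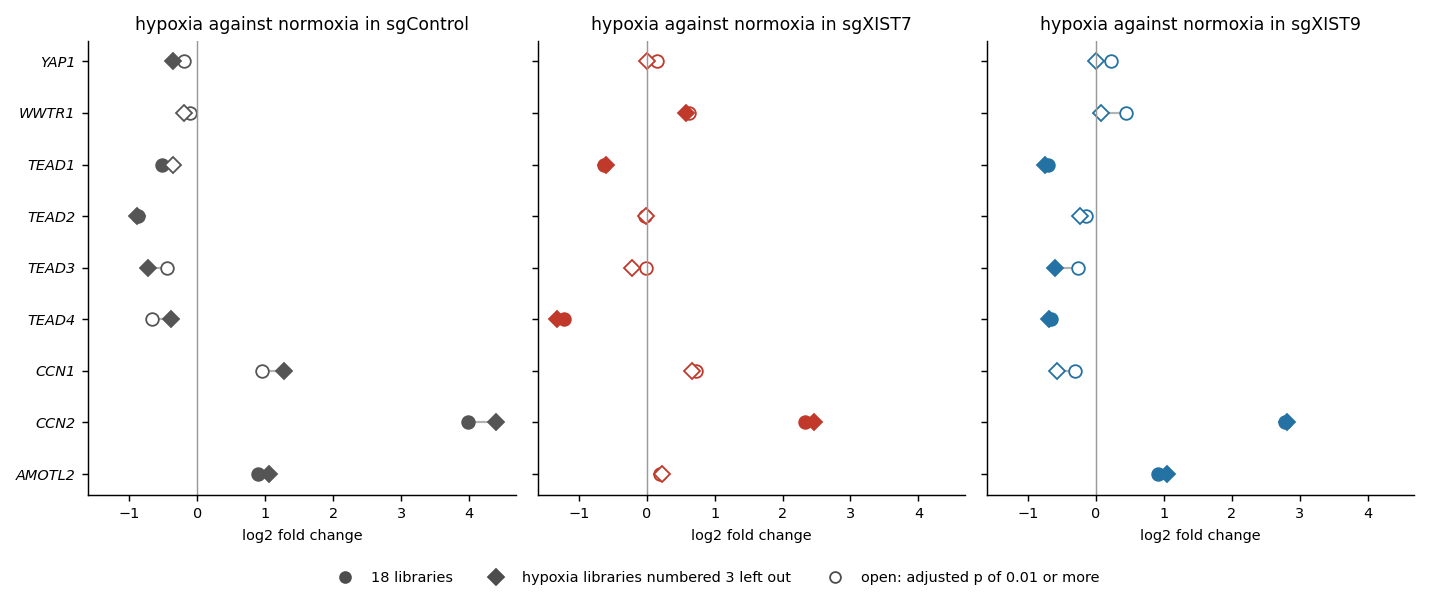
Log2 fold change of hypoxia against normoxia in each guide for the 9 genes tested, from all 18 libraries (circles) and with the 3 hypoxia libraries numbered 3 left out (diamonds), where filled marks have an adjusted p under 0.01. In sgControl YAP1, TEAD3, TEAD4 and CCN1 pass only without these libraries and TEAD1 only with them, while CCN2 keeps values of 2.33 or more in every fit shown.

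With the 3 hypoxia libraries numbered 3 left out together, the spread fell and more genes passed throughout the data. In sgControl, 7 of the 9 genes then changed in hypoxia in place of 4, where 47.0% of the 15278 genes then tested passed. The 4 genes gained were YAP1, TEAD3, TEAD4 and CCN1 (1.28, edgeR, adjusted p = 0.00028), and the gene lost was TEAD1 (-0.36, adjusted p = 0.012). In sgXIST7, 4 passed in hypoxia against normoxia, where 51.2% of all genes did, and in sgXIST9, 5 passed, against 48.6%. For the guides against sgControl in hypoxia, 5 passed in sgXIST7 (37.5% of all genes) and 5 in sgXIST9 (26.0%). In sgXIST7 TEAD4 was gained (-0.60, adjusted p = 0.0012) and TEAD1 lost, and in sgXIST9 CCN2 was gained (-1.25, adjusted p = 0.0005). The share of all genes that passed rose alongside in each of these comparisons.

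The genes upstream of YAP and TAZ were described from lists of pathway members. Of 17 genes of Hippo kinases and their scaffolds, all of which were tested, 0 rose and 1 fell in each XIST guide in normoxia, MAP4K4 in sgXIST7 (-0.51) and LATS2 in sgXIST9 (-0.71), near the 6.1% and 6.6% of all genes that fell. In hypoxia, 1 rose and 4 fell in sgXIST7, where 13.9% of all genes rose and 13.7% fell, and 0 rose and 4 fell in sgXIST9, against 9.65% and 8.24%. The log2 fold changes of the genes that fell, in sgXIST7 and sgXIST9, were -1.12 and -0.66 for NF2, -0.99 and -0.62 for TAOK2, -0.93 and -0.87 for LATS2, and -0.64 and -0.40 for MAP4K4. NF2 encodes merlin, a scaffold that activates LATS, TAOK2 and MAP4K4 encode kinases upstream of LATS, and LATS2 is itself also a YAP target. The gene that rose was SAV1 (0.49), the partner of the MST kinases. The median log2 fold change over the list was between -0.21 and -0.14 in these 4 comparisons, beside -0.02 to -0.01 over all genes. Of these genes only NF2 in sgXIST7 was called, and the others were named after their values were seen.

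**Figure D5:**
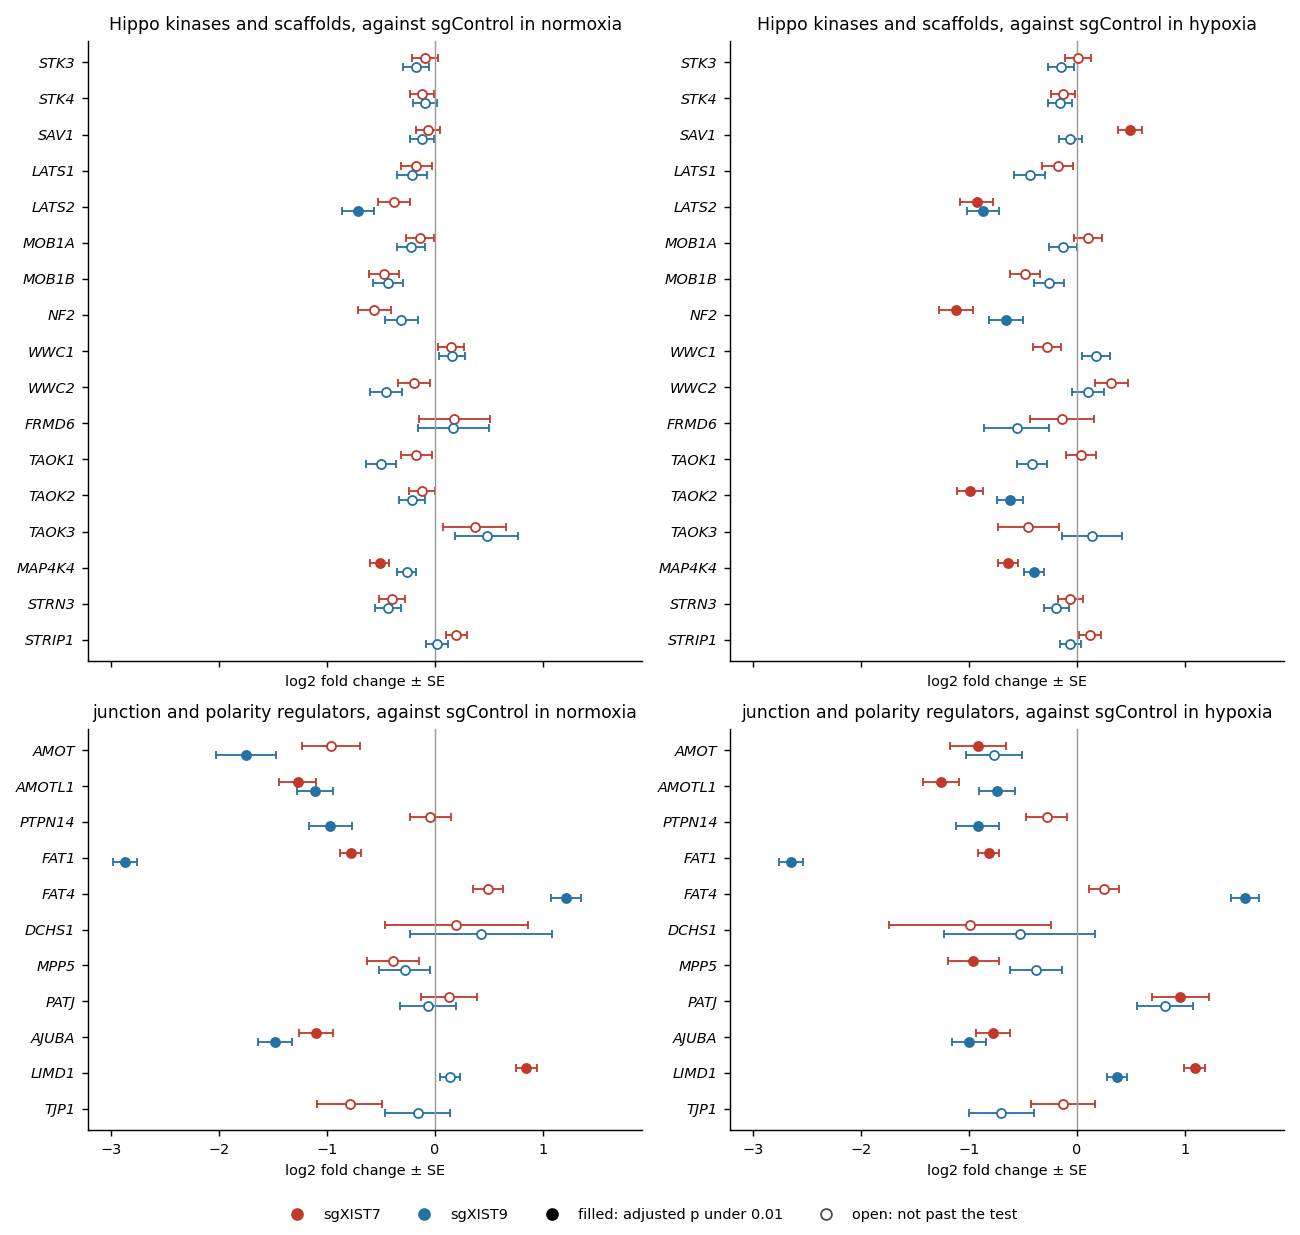
Log2 fold change with its SE against sgControl in normoxia (left) and hypoxia (right) for the 17 Hippo kinases and scaffolds (top) and the 11 tested junction and polarity regulators (bottom, with PALS1 under its listed name MPP5). Filled points have an adjusted p under 0.01. FAT1 in sgXIST9 is the furthest from 0, at -2.87 and -2.65.

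Junction and polarity proteins hold YAP and TAZ at the membrane or feed into the kinases, and 11 of 12 such genes were tested. In normoxia 1 rose and 3 fell in sgXIST7, and 1 rose and 5 fell in sgXIST9, where 7.39% and 6.51% of all genes rose and 6.1% and 6.6% fell. AMOTL1, an angiomotin like AMOTL2, fell by 1.27 and 1.11 on the log2 scale in sgXIST7 and sgXIST9, and AJUBA, a LIM protein that inhibits LATS, fell by 1.10 and 1.48. AMOT fell by 1.75 in sgXIST9. FAT1, an atypical cadherin, fell from 512 ± 31.4 CPM in sgControl to 70.2 ± 3.28 CPM in sgXIST9 (SD, n = 3), a log2 fold change of -2.87 ± 0.11 SE (edgeR, adjusted p = 3.6e-12). In hypoxia 2 rose and 5 fell in sgXIST7, and 2 rose and 4 fell in sgXIST9, where 13.9% and 9.65% of all genes rose and 13.7% and 8.24% fell. In sgXIST9 FAT1 again fell (-2.65) and FAT4 rose (1.56). Unlike AJUBA, the LIM protein LIMD1 stood higher in sgXIST7 than in sgControl, without overlap. Its means were 202 and 112 CPM in normoxia and 242 and 114 CPM in hypoxia. In sgXIST9 the LIMD1 means were 123 CPM in normoxia and 148 CPM in hypoxia. The median over the list was -0.39 and -0.28 in normoxia and -0.78 and -0.70 in hypoxia.

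In hypoxia against normoxia, 3 of the 17 kinases and scaffolds rose and 4 fell in sgControl, where 18.8% of all genes rose and 18.8% fell. In each XIST guide 2 rose and 3 fell, against 23.5% and 23.2% of all genes in sgXIST7 and 23.1% and 19.0% in sgXIST9, so these counts are near or below those over all genes. SAV1 rose in all 3 (1.27 in sgControl, 1.82 in sgXIST7 and 1.33 in sgXIST9), as did FRMD6, a FERM protein that acts with merlin (2.10, 1.78 and 1.37), while NF2 fell (-0.79, -1.35 and -1.14) together with WWC1 (-0.77, -1.20 and -0.74). VGLL4, which competes with YAP for TEAD binding, rose in all 3 guides by 1.79, 2.15 and 1.81 on the log2 scale. Among the other VGLL genes, VGLL1 and VGLL2 were at or near 0, and VGLL3 was the only further gene tested. VGLL3 rose in sgXIST9 in hypoxia (2.78), from 11, 4 and 8 counts to 69, 95 and 10. Of the other CCN genes, CCN3 to CCN6, 0 passed the filter.

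A longer list of 18 genes reported as YAP or TAZ targets, of which 17 were tested, was compared with sgControl in the same way. In normoxia 1 rose and 3 fell in sgXIST7, where 7.39% of all genes rose and 6.1% fell, and 2 rose and 6 fell in sgXIST9, against 6.51% and 6.6%. In hypoxia 2 rose and 6 fell in sgXIST7, against 13.9% and 13.7% of all genes, and 2 rose and 5 fell in sgXIST9, against 9.65% and 8.24%. In sgXIST7 in normoxia, only the number that rose is near the share over all genes. The median log2 fold change over the list was -0.38 and -0.66 in normoxia and -0.16 and -0.28 in hypoxia. LATS2 and PTPN14 are counted here and in the lists above. CRIM1, a transmembrane protein, was at 5.77 ± 0.411 CPM in sgControl normoxia, 0.578 ± 0.198 CPM in sgXIST7 and 0.0549 ± 0.0532 CPM in sgXIST9 (SD, n = 3), and at 18.7 ± 6.37, 2.03 ± 0.635 and 0.142 ± 0.0686 CPM in hypoxia. The sgXIST9 levels of CRIM1 rest on 0, 2 and 1 counts in normoxia and 4, 4 and 1 in hypoxia, near the limit of detection. TGFB2, a growth factor, had 199, 95 and 53 counts in sgControl normoxia and 0 to 3 in the XIST guides, which is at the limit of detection, so no fold is given. In hypoxia TGFB2 had 255, 205 and 55 counts in sgControl and 0 to 5 in the XIST guides.

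IGFBP3, which binds insulin-like growth factors, fell in normoxia by 1.34 in sgXIST7 and by 2.89 in sgXIST9 on the log2 scale. The sgXIST7 libraries were widely spread, at 87.0, 24.6 and 52.6 CPM, against 18.1 to 19.5 CPM in sgXIST9 and 121 to 167 CPM in sgControl. RBMS3, an RNA-binding protein, went the other way and rose in both guides at both oxygen levels (2.53 to 3.86), from 0.628 ± 0.279 CPM in sgControl normoxia to 4.86 ± 0.814 CPM in sgXIST7. These values rest on a sgControl level near the limit of the data, with 14, 7 and 7 counts in normoxia and 5, 7 and 8 in hypoxia. CCDC80 of the same list was also higher in the XIST guides. Its means in sgControl, sgXIST7 and sgXIST9 were 14.3, 19.4 and 22.9 CPM in normoxia and 15.1, 25.6 and 48.2 CPM in hypoxia. In hypoxia against normoxia 4 of the list rose and 2 fell in sgControl, 6 rose and 1 fell in sgXIST7, and 5 rose and 2 fell in sgXIST9, where 18.8%, 23.5% and 23.1% of all genes rose and 18.8%, 23.2% and 19.0% fell. IGFBP3 rose in each, by 1.99, 3.96 and 4.94.

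Over the 18 libraries, the genes whose log2 CPM was most like that of each effector or target were listed by Pearson's r, as a description, since the libraries fall into 6 groups. YAP1 was closest to GOLGA8B (0.925), RNF130 (0.913) and RAB28 (0.906), and WWTR1 to POM121 (0.954), NIBAN2 (0.935) and APLP2 (0.932). CCN1 was closest to FAM110B (0.944), to CRIM1 (0.930), which is on the list of targets, and to ZEB2 (0.922). CCN2 was closest to DNAJB4 (0.968), RNF2 (0.966) and TMEM184B (0.965), and AMOTL2 to PAPOLG (0.954), ACVR2A (0.954) and B9D2 (0.942). None of the effectors or TEAD genes was among the 3 genes closest to a target. The ranking takes the highest positive r over all genes tested, so it leaves out negative relations, such as TEAD2 with AMOTL2 (r = -0.88).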

How the data were processed

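RNA-seq of 18 libraries in 6 groups of 3 was analysed. The authors made the deposited counts from ribosomal RNA-depleted, stranded, paired-end libraries (TruSeq Stranded Total RNA with Ribo-Zero). Reads were trimmed with Trimmomatic, checked with FastQC, aligned to hg38 with hisat2 and counted per gene with featureCounts, whose strand setting is not given in the sources used here, and the authors compared groups with DESeq2. The deposited values are whole-number counts per gene without normalization. The table listed 28277 genes after 2 broken lines with 0 counts were left out. Without molecular identifiers, limits on counts cover counting error only.

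The counts were fitted with edgeR 4.0.16 (glmQLFit with robust estimation and glmQLFTest, limma 3.58.1, R 4.3.3) as 6 group means, so that all groups shared an estimate of the spread. The fit used TMM factors (0.859 to 1.115), filterByExpr (minimum count 10, minimum total 15), which kept 14938 genes, and a prior count of 0.125. P-values were adjusted over these genes for each contrast. Intervals are the log2 fold change ± 2 SE. In simulated counts for sgXIST7 against sgControl in normoxia, 200 genes with a mean of at least 50 counts were changed by 2 on the log2 scale, up or down. Of the 200 changed genes among 14670, 189 passed the test (94.5%), and 3 unchanged genes passed. For the sgXIST7 interaction, 172 of 200 were found (86%). These shares do not cover smaller changes or genes with fewer counts.

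The members and gene lists were chosen with earlier results of these data known, so no list is independent evidence. The 10 members were named in every comparison. Of the further lists, called genes were named, at most the 8 of largest change per comparison, and other genes are named only after their values were seen. Alternatives were DESeq2 1.42.0 (Wald test), median-of-ratios and upper-quartile scaling, no filter beyond 1 count, a mean CPM of at least 1, a threshold of 0.05 on the adjusted p, a fit of the compared groups only, a block for the replicate number, removal of each library, and removal of the 3 hypoxia libraries numbered 3 together.

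Replicate numbers were shared across groups in the labels. The deviations of same-numbered libraries from their group means correlated above 0.1 in all 3 pairs for sgControl with sgXIST7 in normoxia (0.148 to 0.379) and sgControl with sgXIST9 in hypoxia (0.197 to 0.566), and not in the other pairs of groups. The pairing comes from these correlations and not from a statement in the labels.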

Additional observations from a re-analysis of the deposited data

Results flagged for a closer look

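The response of TEAD2 to hypoxia differed between sgXIST7 and sgControl in the test of the difference itself. The difference was 0.85 ± 0.15 SE on the log2 scale (edgeR interaction term, adjusted p = 0.0035), with a fall from 59.5 to 32.4 CPM in sgControl and levels of 69.8 and 68.6 CPM in sgXIST7 (means, n = 3).

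ADM, which encodes adrenomedullin and is among the hypoxia markers used to check the treatment, also responded differently, by 4.36 in sgXIST7 (edgeR, adjusted p = 5e-06) and by 3.76 in sgXIST9 (adjusted p = 3.7e-05). Its level in sgControl was 287 ± 33.3 CPM in normoxia and 324 ± 56.7 CPM in hypoxia, against 8.14 ± 2.02 and 188 ± 47.8 CPM in sgXIST7 and 7 ± 0.884 and 107 ± 42.3 CPM in sgXIST9 (SD, n = 3). IGFBP3, on the list of YAP and TAZ targets, responded more in sgXIST9 than in sgControl, by 2.95 (adjusted p = 0.0022). It went from 138 ± 25.0 to 551 ± 126 CPM in sgControl and from 18.6 ± 0.818 to 573 ± 173 CPM in sgXIST9. Groups of 3 are too small for a test of single outlying libraries.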

How the results depend on the processing

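Of 99 values of the genes (9 genes in 11 contrasts), 26 passed the test, and 28 alternatives were run for each, 18 of which left out a library. Of the 26, 0 changed sign in any alternative, 17 passed in all of them and 9 were lost in at least 1. The alternative of a replicate block within each oxygen level was chosen after seeing the data. The numbers that passed or were called moved as follows, with the cause not tested. With the 3 hypoxia libraries numbered 3 left out, 4 in place of 2 passed in sgXIST7 against sgControl in normoxia (2 in place of 1 called), 2 in place of 1 were called in sgXIST9 against sgControl in hypoxia, 7 in place of 4 passed in hypoxia in sgControl (3 in place of 1 called), 2 in place of 1 were called in hypoxia in sgXIST9, 2 in place of 0 passed and were called between the XIST guides in normoxia and 3 in place of 1 passed in hypoxia (2 in place of 1 called), and 3 in place of 1 and 2 in place of 0 passed in the differences in response of sgXIST7 and sgXIST9 (1 in place of 0 called in each). In a fit of the compared groups only, 4, 5, 3 and 2 in place of 2, 2, 5 and 4 passed in sgXIST7 and sgXIST9 against sgControl in normoxia and then in hypoxia (2 in place of 1 called in the first), 2 in place of 0 passed and were called between the XIST guides in normoxia, and 0 in place of 1 passed in the sgXIST7 response. AMOTL2 of sgXIST9 in hypoxia was lost only in that fit. In sgXIST7 against sgControl in normoxia, 1 passed and 0 were called with upper-quartile scaling, and 2 were called with DESeq2 and at an adjusted p under 0.05. Between the XIST guides in normoxia, 2 passed and were called at an adjusted p under 0.05. In the sgXIST9 response, 1 in place of 0 passed with DESeq2, upper-quartile scaling, a mean CPM of at least 1, either replicate block and an adjusted p under 0.05.

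When single libraries were left out, the number that passed was 0 to 3 in sgXIST7 and 2 in sgXIST9 against sgControl in normoxia, 3 to 5 in both in hypoxia, 3 to 5, 3 to 4 and 3 to 4 in hypoxia in sgControl, sgXIST7 and sgXIST9, 0 to 2 and 1 to 2 between the XIST guides in normoxia and hypoxia, and 0 to 3 in each difference in response. The number called was 0 to 2, 1, 3 to 4 and 1 to 4 against sgControl, 1 to 3, 2 and 1 to 2 in hypoxia, 0 to 2 and 1 to 2 between the XIST guides, and 0 to 1 and 0 to 2 in the responses.

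Sign changes were seen only in values that had not passed. Without the 3 hypoxia libraries numbered 3, CCN2 of sgXIST7 and TEAD1 and TEAD4 of sgXIST9 against sgControl in hypoxia were -0.11, -0.08 and -0.21. TEAD3 in hypoxia in sgXIST7 was 0.02 with DESeq2 and with median-of-ratios scaling and 0.01 with upper-quartile scaling and with a mean CPM of at least 1. With upper-quartile scaling YAP1 between the XIST guides in normoxia was 0.00 and TEAD4 in the sgXIST9 response 0.03. AMOTL2 in that response was -0.05 with DESeq2 and median-of-ratios scaling, and -0.00 in the fit of the compared groups and with the block within each oxygen level. With a library left out, the ranges that crossed 0 were, in hypoxia against normoxia, -0.02 to 0.38 for AMOTL2, -0.10 to 0.02 for TEAD2 and -0.22 to 0.17 for TEAD3 in sgXIST7 and -0.00 to 0.36 for YAP1 in sgXIST9. Against sgControl in hypoxia they were -0.23 to 0.67 for CCN2 and -0.02 to 0.49 for TEAD3 in sgXIST7, and -0.03 to 0.29 for TEAD1, -0.56 to 0.09 for TEAD3 and -0.19 to 0.23 for TEAD4 in sgXIST9. Between the XIST guides they were -0.03 to 0.04 for YAP1 and -0.06 to 0.05 for TEAD2 in normoxia and -0.23 to 0.15 for YAP1 in hypoxia. In the responses they were -0.55 to 0.08 for CCN1 and -0.26 to 0.05 for TEAD1 in sgXIST7, and -0.14 to 0.14 for AMOTL2, -0.18 to 0.47 for TEAD3 and -0.28 to 0.14 for TEAD4 in sgXIST9.

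The replicate block changed few test results. A single block over all libraries made TEAD2 pass in the sgXIST9 response (0.72, edgeR, adjusted p = 0.0091). The block within each oxygen level made WWTR1 of sgXIST7 in normoxia (0.58, adjusted p = 0.0099), TEAD3 in hypoxia in sgControl (-0.48, adjusted p = 0.0069), WWTR1 in hypoxia in sgXIST7 (0.62, adjusted p = 0.0023) and TEAD2 in the sgXIST9 response (0.72, adjusted p = 0.003) pass. No result that had passed was lost with either block. Depth limits CCN2 in normoxia and ANKRD1 throughout.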
